A study of Homo sapiens with 8 samples.

Results

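Expression of 10 genes of cellular iron handling was followed across 8 replicate libraries of hCMEC/D3, an immortalised human line derived from brain endothelium and grown to model the blood-brain barrier in culture. They were found in the expression table by symbol, as 10 of 23346 listed genes: TFRC, FTH1, FTL, IREB2, ACO1, FBXL5, STEAP3, HMOX1, HFE and CP. The set was chosen by the spread of TFRC CPM and CQN values between these libraries, which was known beforehand, so that spread is given as a description, with no p-value. The question was whether other genes controlled by the iron regulatory proteins varied with it.

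All 8 libraries were made from polyadenylated RNA and form 1 group with no treatment, time point or second genotype. The labels do not say whether the replicates were separate cultures, so p-values refer only to these samples, whose differences may be technical. Being a single line, it cannot stand for variation between people. Endothelial identity was checked with 10 markers, all of which were detected, while the defining markers of astrocytes (0 of 4), microglia (0 of 4), hepatocytes (0 of 3) and erythroid cells (0 of 4) were not. Markers of mural cells (2 of 4) and neurons (1 of 4) were detected in part. Detected means a CPM (counts scaled to a common library size, with TMM factors) of at least 1 in each of the 8 libraries, which held for 11980 genes and for 9 of the 10 members. The mural markers were PDGFRB at 9.57 ± 1.63 CPM and RGS5 at 14.4 ± 3.77 CPM (SD, n = 8). The neuron marker was SYT1 at 4.17 ± 1.29 CPM.

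Cells take up iron by binding transferrin at the transferrin receptor, which is endocytosed. In the endosome ferric iron is reduced and released to the cytosol, where it is used, stored in ferritin or exported. In the endothelium of the blood-brain barrier this receptor is the main entry point for circulating iron and is a known target for carrying drugs into the brain. The iron regulatory proteins IRP1 and IRP2 bind a hairpin, the iron-responsive element (IRE), when the cell is short of iron. Bound at the 3′ end of the TFRC mRNA they protect it from decay, whereas bound near the 5′ end of the ferritin mRNAs they block translation. The textbook switch therefore acts on the amount of TFRC mRNA, but on ferritin mainly at the level of protein, which was not measured here.

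The elements themselves are shown because they define which members the switch acts on. Canonical transcripts of the GENCODE annotation on GRCh37 were searched on the sense strand for an unpaired C, 5 bases of the upper stem, the loop CAGTGN and 5 bases that pair with that stem, allowing G-T pairs. A looser loop, CAGNGN, was searched as well. TFRC held 5 such hairpins in its 3′UTR of 2658 bases, 4 with the strict loop and 1 with the looser one. They lie on the minus strand at chr3:195777900-195777929, chr3:195777850-195777879, chr3:195777446-195777475, chr3:195777381-195777410 and chr3:195777334-195777363. The ferritin heavy chain gene FTH1 held 1 in its 5′UTR at chr11:61735046-61735075 (minus strand), and the light chain gene FTL 1 in its 5′UTR at chr19:49468591-49468620 (plus strand). Each is printed 5′ to 3′ with the loop in capitals.
TFRC element 1: tatttatcagtgaCAGAGTtcactataaat
TFRC element 2: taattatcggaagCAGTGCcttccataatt
TFRC element 3: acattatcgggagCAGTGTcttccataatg
TFRC element 4: tctgtatcggagaCAGTGAtctccatatgt
TFRC element 5: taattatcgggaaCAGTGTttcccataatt
FTH1 element: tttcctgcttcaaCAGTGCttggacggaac
FTL element: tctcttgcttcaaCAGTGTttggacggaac

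Among 19894 protein-coding canonical transcripts, 259 (1.3%) held at least 1 strict match anywhere, 18 (0.0905%) held it in the 5′UTR and 123 (0.618%) in the 3′UTR. Only TFRC held 3 or more strict matches in its 3′UTR (0.00503% of transcripts), and only TFRC held 5 or more with the looser loop. STEAP3 held 1 looser match, and the canonical transcripts of IREB2, ACO1, FBXL5, HMOX1, HFE and CP held none. A match describes letters and a possible stem, not a bound site. Of the transcripts known for such hairpins outside the 10 genes, 2 that matched are printed: SLC40A1, the iron exporter ferroportin, in the 5′UTR at chr2:190445387-190445416, and CDC14A, a phosphatase, in the 3′UTR at chr1:100984138-100984167.
SLC40A1 element: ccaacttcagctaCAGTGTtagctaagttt
CDC14A element: atatttacatgtaCAGTGTtacattatata

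Total counts ran from 69388544 to 90205244 per library. No count was odd, so the depth was read as 34694272 to 45102622 read pairs. The libraries differed in how their levels depended on transcript length. The slope of a library's deviations on log2 transcript length was between 0.09 and 0.15 in replicates 1, 3, 4, 5 and 6, and was -0.11 in replicate 7, -0.22 in replicate 2 and -0.34 in replicate 8. The share of counts on 87 ribosomal protein genes was 3.88% to 4.42% in the same 5 libraries, then 5.72%, 6.17% and 7.50% in replicates 7, 2 and 8. Values are therefore given both as CPM and as the authors' CQN values, which are on a log2 scale and adjusted for gene length and GC content.

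TFRC encodes the transferrin receptor and spans chr3:195776155-195809032 on the minus strand of GRCh37, with 19 exons. Its level in replicates 1 to 8 was 461, 167, 494, 436, 544, 426, 408 and 127 CPM (383 ± 152, SD, n = 8). Replicates 2 and 8 were low and the other 6 libraries lay between 408 and 544 CPM, with nothing between 167 and 408. Replicate 7 stood with the majority for TFRC although its length slope and ribosomal protein share were on the side of replicates 2 and 8. The highest and lowest libraries differed 4.29-fold. Replicate 8 had 5355 TFRC read pairs, or an unscaled CPM of 122 (95% Wilson interval 118.5 to 125), and replicate 2 had 7522, or 167 (163 to 171), intervals that cover counting error only. On CQN values TFRC was 8.74, 7.86, 8.86, 8.71, 9.10, 8.69, 8.91 and 7.54 (8.55 ± 0.55, SD, log2), and replicates 2 and 8 were again lowest. The summed level of the 10 endothelial markers also moved between libraries, from 2316 to 4486 CPM. PECAM1, an endothelial adhesion molecule chosen here after its values were seen, was at 368, 503, 341, 339, 303, 353, 353 and 656 CPM, highest in replicates 8 and 2. CLDN5, a tight junction protein chosen in the same way, was at 90.0, 237, 87.1, 88.9, 71.5, 94.7, 79.3 and 252 CPM, again highest there. The 10 markers did not share this direction. In the test against TFRC described below, 5 were called negative on CPM and 2 positive, FLT1 (r = 0.81) and TEK (r = 0.75). On that scale 63.2% of all genes were called. On CQN values 2 were called, both negative, FLT1 now among them (r = -0.83), where 14.3% of all genes were called. The part of library preparation or of these markers in the level of TFRC was not tested.

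**Figure D1:**
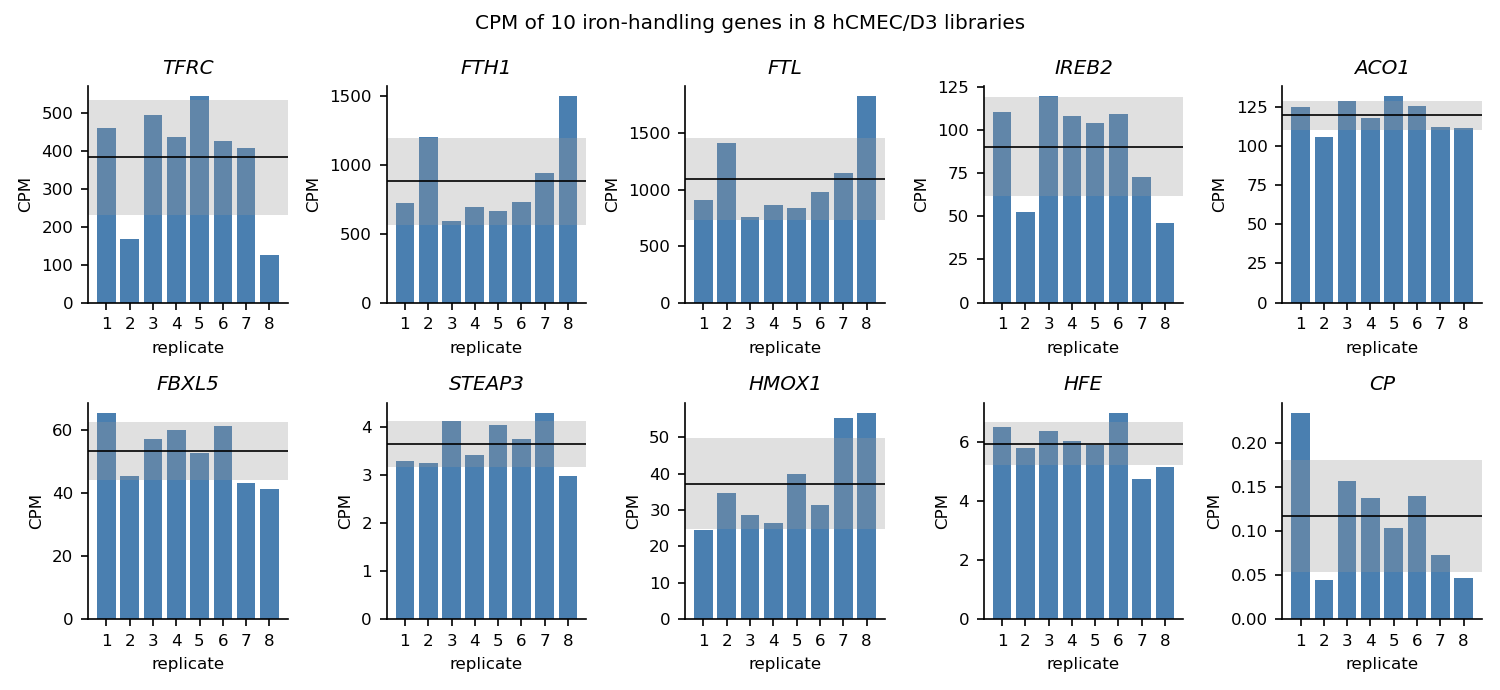
CPM (y axis, linear from 0) of each of the 10 genes in replicates 1 to 8 (x axis), 1 bar per library. The black line is the mean and the grey band 1 SD to either side. TFRC drops to 167 and 127 CPM in replicates 2 and 8, where FTH1 and FTL are at their highest, while ACO1 stays between 106 and 132 CPM.

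FTH1 and FTL encode the heavy and light chains of ferritin, the iron storage shell. The heavy chain carries the ferroxidase activity. FTH1 (chr11:61731757-61735132, minus strand, 4 exons) was at 724, 1204, 591, 697, 662, 733, 938 and 1497 CPM in replicates 1 to 8 (881 ± 316, SD, n = 8). FTL (chr19:49468566-49470136, plus strand, 4 exons) was at 905, 1408, 761, 867, 838, 979, 1144 and 1824 CPM (1091 ± 361). Both chains were highest in replicate 8, next in replicate 2 and then in replicate 7, and their 8 libraries fell in the same rank order (Spearman's rho = 1). The lowest and highest libraries differed 2.53-fold for FTH1 and 2.40-fold for FTL. Both genes have many processed pseudogenes, so their counts are uncertain. The listed span of FTH1 also overlaps BEST1 and that of FTL overlaps 10 listed SNAR-A genes, and how the counting treated such reads is not given in the sources used here.

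The ratio of the chains was steady on CPM and not on CQN values. FTH1 minus FTL on log2(CPM + 1) was negative in 8 of 8 libraries, from -0.42 to -0.23 (-0.32 ± 0.06, SD). On CQN values the same difference was -0.31, 0.16, -0.39, -0.34, -0.35, -0.40, -0.12 and 0.14 in replicates 1 to 8, so that it changed sign in replicates 2 and 8. With each library's own trend on transcript length and GC content removed from log2(CPM + 1), no library was positive (-0.32 ± 0.18). The direction in replicates 2 and 8 thus depended on the authors' adjustment. On CQN values FTH1 was 10.62, 10.93, 10.39, 10.62, 10.39, 10.71, 10.56 and 10.95, with replicates 2 and 8 still highest. FTL was 10.93, 10.77, 10.78, 10.95, 10.75, 11.10, 10.68 and 10.81, where replicates 2 and 8 lay inside the range of the others.

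**Figure D2:**
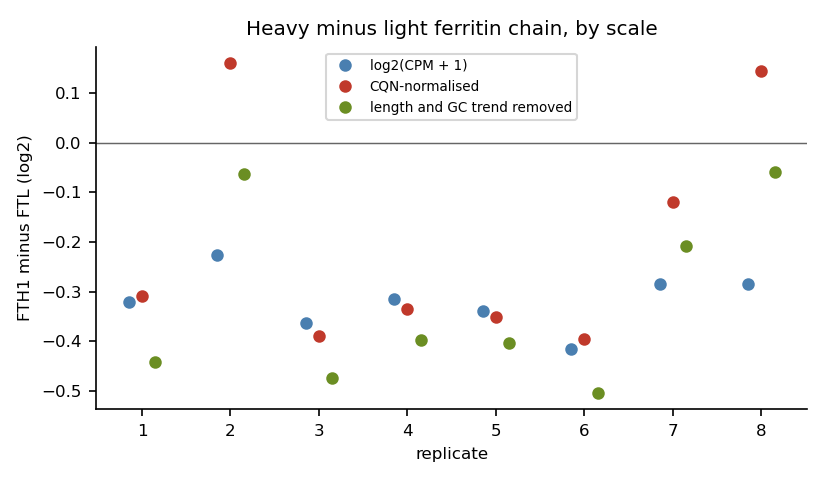
FTH1 minus FTL (y axis, log2) in replicates 1 to 8 (x axis) on log2(CPM + 1), on CQN values and after removal of the length and GC trend, 1 point per library and scale. CQN values alone cross 0, at 0.16 in replicate 2 and 0.14 in replicate 8.

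The 2 iron regulatory proteins differed in their spread on CPM and CQN values, and not after removal of the length and GC trend. IREB2 encodes IRP2, which is degraded when iron is sufficient, and ACO1 encodes IRP1, which turns into a cytosolic aconitase when it holds an iron-sulfur cluster. IREB2 (chr15:78730518-78793798) was at 111, 52.3, 119.6, 108, 104, 109.6, 72.9 and 46.4 CPM (90.4 ± 28.8, SD, n = 8). ACO1 (chr9:32384601-32450832) was at 125, 106, 129, 118, 132, 125, 112 and 111 CPM (119.7 ± 9.31). IREB2 was low in replicates 8, 2 and 7, which are also the 3 libraries with a negative length slope, and its highest and lowest libraries differed 2.58-fold against 1.24-fold for ACO1. IREB2 minus ACO1 on log2(CPM + 1) ranged over 1.14 between libraries, with an SD of 0.44, and the SD of the same difference was 0.12 on CQN values and 0.37 after removal of the length and GC trend. On that last scale the SDs of the genes themselves were close, at 0.19 for IREB2 and 0.20 for ACO1. On CQN values IREB2 was 6.40, 6.11, 6.47, 6.41, 6.44, 6.42, 6.22 and 6.10, so the 3 libraries remained lowest over a much narrower range.

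FBXL5 encodes the iron-sensing subunit of the ubiquitin ligase that marks IRP2 for degradation. Its level (chr4:15606007-15657035) was 65.5, 45.4, 57.3, 60.1, 52.8, 61.2, 43.3 and 41.4 CPM (53.4 ± 9.07, SD, n = 8). Replicates 2, 7 and 8 were lowest, as for IREB2. On CQN values it was 6.24, 6.20, 6.03, 6.18, 6.03, 6.21, 5.90 and 6.13, and replicates 5, 3 and 7 were lowest.

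STEAP3, the endosomal ferrireductase that works beside the receptor, was a low gene at 3.29, 3.24, 4.11, 3.41, 4.04, 3.75, 4.29 and 2.98 CPM (3.64 ± 0.477, SD, n = 8). Replicates 8 and 2 were lowest, with replicate 1 close to them. HFE encodes the membrane protein that binds the transferrin receptor and is mutated in hereditary haemochromatosis. It was at 6.52, 5.81, 6.39, 6.03, 5.91, 7.00, 4.75 and 5.16 CPM (5.94 ± 0.729), lowest in replicate 7.

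HMOX1, the inducible haem oxygenase that frees iron from haem, was at 24.5, 34.8, 28.6, 26.6, 40.0, 31.4, 55.3 and 56.8 CPM (37.3 ± 12.6, SD, n = 8). Replicates 7 and 8 were highest, so its order of libraries differed from that of TFRC, for which replicate 7 stood with the majority. On CQN values HMOX1 was 5.93, 5.82, 6.22, 6.08, 6.59, 6.33, 6.74 and 6.32, over a range of 0.92, with replicate 2 lowest and replicates 7 and 5 highest. CP, the ferroxidase ceruloplasmin, had 2 to 8 read pairs per library and 0.117 ± 0.0640 CPM. It was given no CQN value and entered no test.

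Levels of different genes were compared per transcript length, as RPKM. FTL stood first at 1252 ± 414 RPKM (SD, n = 8) and FTH1 second at 732 ± 263. Then came TFRC at 76.4 ± 30.4, HMOX1 at 24.0 ± 8.10, ACO1 at 16.1 ± 1.25, FBXL5 at 15.3 ± 2.60 and IREB2 at 14.3 ± 4.56. The lowest levels were those of HFE at 1.15 ± 0.141, STEAP3 at 0.854 ± 0.112 and CP at 0.0263 ± 0.0144 RPKM. Neighbours in this order were set apart without overlap of their 8 values at 3 steps: FTH1 over TFRC, IREB2 over HFE and STEAP3 over CP. The other 6 steps overlapped. FTL was still above FTH1 in 8 of 8 libraries, by 0.79 ± 0.06 (SD) on the log2 scale. ACO1, FBXL5 and IREB2 did not differ beyond their spread, ACO1 being above FBXL5 in 5 of 8 libraries (log2 ratio 0.09, SD 0.19) and FBXL5 above IREB2 in 6 of 8 (0.16, SD 0.34).

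The spread of TFRC was placed among all detected genes as a description. Its SD between libraries was 0.78 on log2(CPM + 1), above that of 98.8% of genes, and 0.55 on CQN values, above 97.2%. The median gene had 0.25 and 0.16. IREB2 (0.53), FTH1 (0.47), HMOX1 (0.45) and FTL (0.43) were also in the upper part on log2(CPM + 1), above 92.2%, 86.9%, 85.0% and 82.4% of genes. On CQN values HMOX1 had 0.31 (above 85.0%), FTH1 0.21 (66.9%), IREB2 0.15 (46.6%) and FTL 0.14 (40.7%). ACO1 was low on both, at 0.11 (10.8%) and 0.07 (9.66%), but not after removal of the length and GC trend from log2(CPM + 1), where it had 0.20 (above 65.4%). On that scale TFRC had 0.57 (98.4%), HMOX1 0.31 (86.5%), FTH1 0.25 (78.3%), IREB2 0.19 (62.1%) and FTL 0.13 (38.5%). After TFRC, the next member by spread on CQN values was HMOX1.

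**Figure D3:**
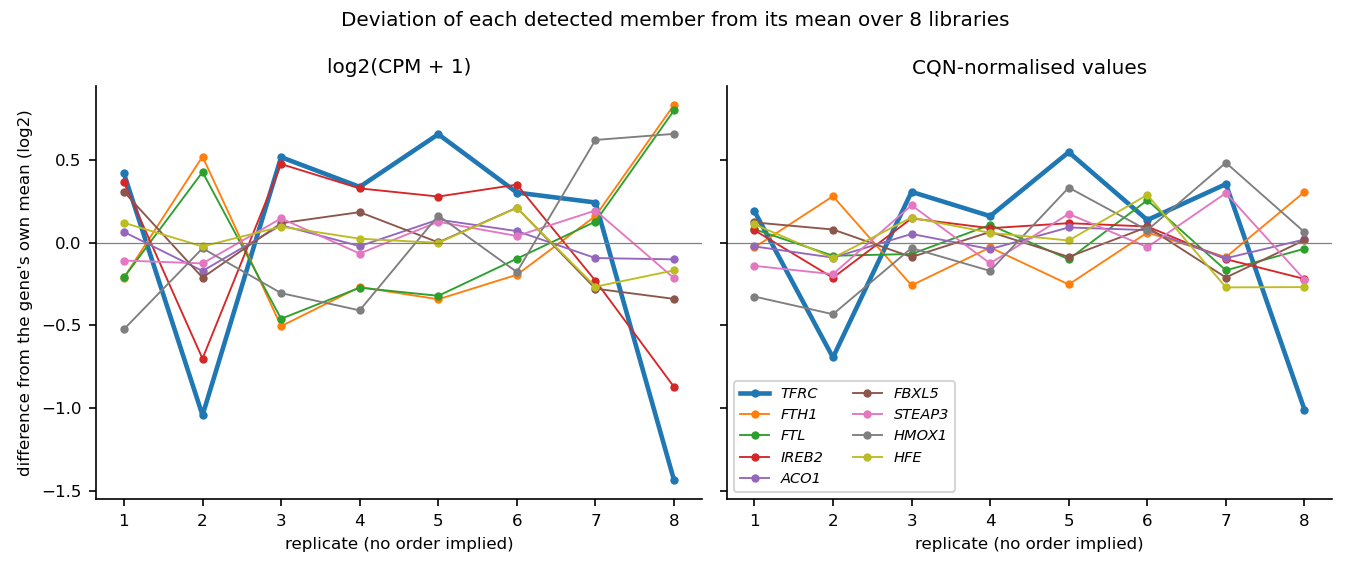
Difference of each detected member from its own mean (y axis, log2) in replicates 1 to 8 (x axis, no order implied), on log2(CPM + 1) at left and CQN values at right, 1 line per gene. TFRC (thick line) is lowest in replicates 2 and 8 in both panels, while the ferritin and IREB2 lines flatten on CQN values, where the SD is 0.21 for FTH1, 0.14 for FTL and 0.15 for IREB2.

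The counts also gave a variation trend over all 11980 detected genes. The biological coefficient of variation of TFRC was 42.6%, where the edgeR trend gave 23.2% for genes of its level. It was 32.2% for IREB2, 30.6% for FTH1, 30.02% for HMOX1, 28.6% for FTL and 14.2% for ACO1, at trend values between 23.3% and 23.8%. The goodness-of-fit test of edgeR placed 558 genes, or 4.66%, above the trend, TFRC being the 1 member among them. With the fitted trend of DESeq2 the numbers were 2967 genes (24.8%) and 5 members, and without replicate 8 they were 381 genes and no member. As TFRC was chosen for its spread, nothing is read from these member counts.

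**Figure D4:**
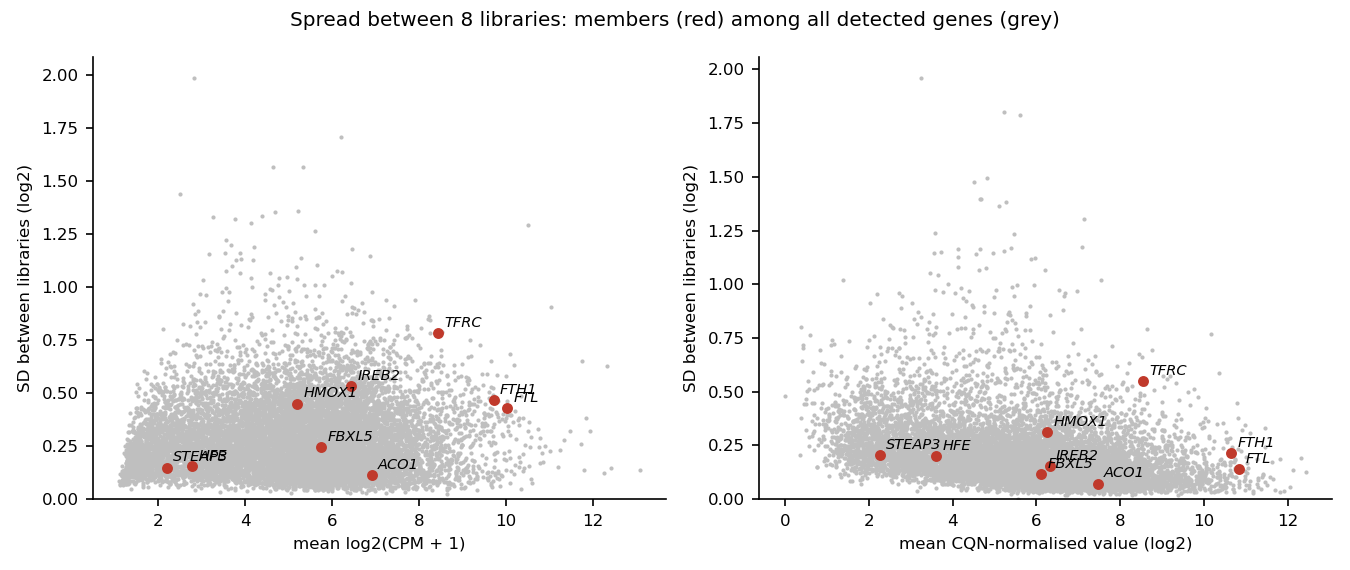
SD between 8 libraries (y axis, log2) against mean level (x axis) for all detected genes (grey) and the members (red), on log2(CPM + 1) at left and CQN values at right. TFRC is the highest member in both panels, at 0.78 and 0.55, and the rest of the members fall to 0.31 or lower at right.

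Relations between TFRC and every other detected gene were then tested over the 8 libraries with Pearson's r, Spearman's rho and an exact two-sided permutation test of all pairings. P-values were adjusted over the 11979 genes. The test treats the libraries as interchangeable, although replicates 2, 7 and 8 shared a negative length slope and a higher ribosomal protein share. As replicates 2 and 8 lay apart from the rest for TFRC, r in the other 6 libraries is also given for many of the genes. An r printed without that value may rest on replicates 2 and 8. On log2(CPM + 1), 63.2% of all genes were called, 29.5% with a positive r and 33.8% with a negative one, so that a call on this scale is the common outcome. Of the 8 other detected members, 5 were called. Other scalings (63% of genes), a pseudocount of 5 (63.1%) and a filter of 10 counts in each library (54.4%) left 4 or 5 of them called, STEAP3 being the one that was lost. Deciding by Spearman's rho left 5.18% of genes and 2 members, FTH1 and FTL.

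Both ferritin chains ran opposite to TFRC on CPM. FTH1 had r = -0.95 (exact permutation p = 5.70e-04, adjusted p = 0.0113) and rho = -0.95 (exact p = 0.00114), and r was -0.73 in the other 6 libraries. FTL had r = -0.95 (exact permutation p = 4.96e-04, adjusted p = 0.0113) and rho = -0.95 (exact p = 0.00114), and r was -0.76 in the other 6.

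Of the regulators, IREB2 ran with TFRC, at r = 0.94 (exact permutation p = 0.00186, adjusted p = 0.0144) and rho = 0.74 (exact p = 0.0458), and r was 0.50 in the other 6. ACO1 was also called, at r = 0.79 (exact permutation p = 0.00585, adjusted p = 0.0178) and rho = 0.90 (exact p = 0.00456), with r = 0.84 in the other 6, though its whole range was 1.24-fold. Removal of the length and GC trend turned the sign for ACO1 (r = -0.76, exact permutation adjusted p = 0.0803). It also ended the calls of FTL (r = -0.58) and IREB2 (r = 0.89), with exact permutation adjusted p-values of 0.185 and 0.0695.

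STEAP3 was called at r = 0.72 (exact permutation p = 0.0291, adjusted p = 0.0470), with rho = 0.52 (exact p = 0.197), and rests on replicates 2 and 8, with r = 0.14 without them. FBXL5 (r = 0.71), HMOX1 (r = -0.50) and HFE (r = 0.44) did not pass, with exact permutation adjusted p-values of 0.0653, 0.243 and 0.318. Without replicates 2 and 8 their r was 0.16, -0.15 and 0.25. Without replicate 2 no member was called on CPM, nor without replicate 8, and 52 and 50 genes were. The size of r changed little for FTH1 (-0.94 and -0.89), FTL (-0.95 and -0.88) and IREB2 (0.91 and 0.89), with exact permutation adjusted p-values of 0.0732 and 0.0760, 0.0730 and 0.0756, and 0.0909 and 0.0954.

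On CQN values 14.3% of all genes were called, 7.07% positive and 7.27% negative, and 1 of the 8 members, FTH1. Deciding by Spearman's rho, 2.45% of genes and no member were called, FTH1 having an adjusted p of 0.0581 by exact permutation. FTH1 had r = -0.93 (exact permutation p = 6.45e-04, adjusted p = 0.0220) and rho = -0.92 (exact p = 0.00238), and r was -0.81 in the other 6 libraries. Its call was lost without replicate 2, 3, 5, 6 or 8, with r between -0.96 and -0.90 when any 1 library was left out. FTL had r = 0.05 over all 8 and -0.80 in the other 6 (exact permutation adjusted p = 0.937 over all 8). IREB2 had r = 0.83 (exact permutation p = 0.0214, adjusted p = 0.0721) and rho = 0.62 (exact p = 0.115), and -0.06 in the other 6, so its value rests on replicates 2 and 8. STEAP3 had r = 0.74 (exact permutation p = 0.0366, adjusted p = 0.0870) and rho = 0.83 (exact p = 0.0154), with 0.71 in the other 6. ACO1 (0.27), FBXL5 (-0.39), HMOX1 (0.42) and HFE (0.48) did not pass, with exact permutation adjusted p-values of 0.59995, 0.462, 0.409 and 0.327. In the other 6 libraries their r was 0.26, -0.72, 0.68 and -0.49. FTH1 was the 1 member called on CPM, on CQN values and after removal of the length and GC trend, where it had r = -0.89 (exact permutation adjusted p = 0.0397) and -0.45 without replicates 2 and 8. On that last scale 16.4% of genes were called, STEAP3 among them (r = 0.91, exact permutation adjusted p = 0.0280).

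**Figure D5:**
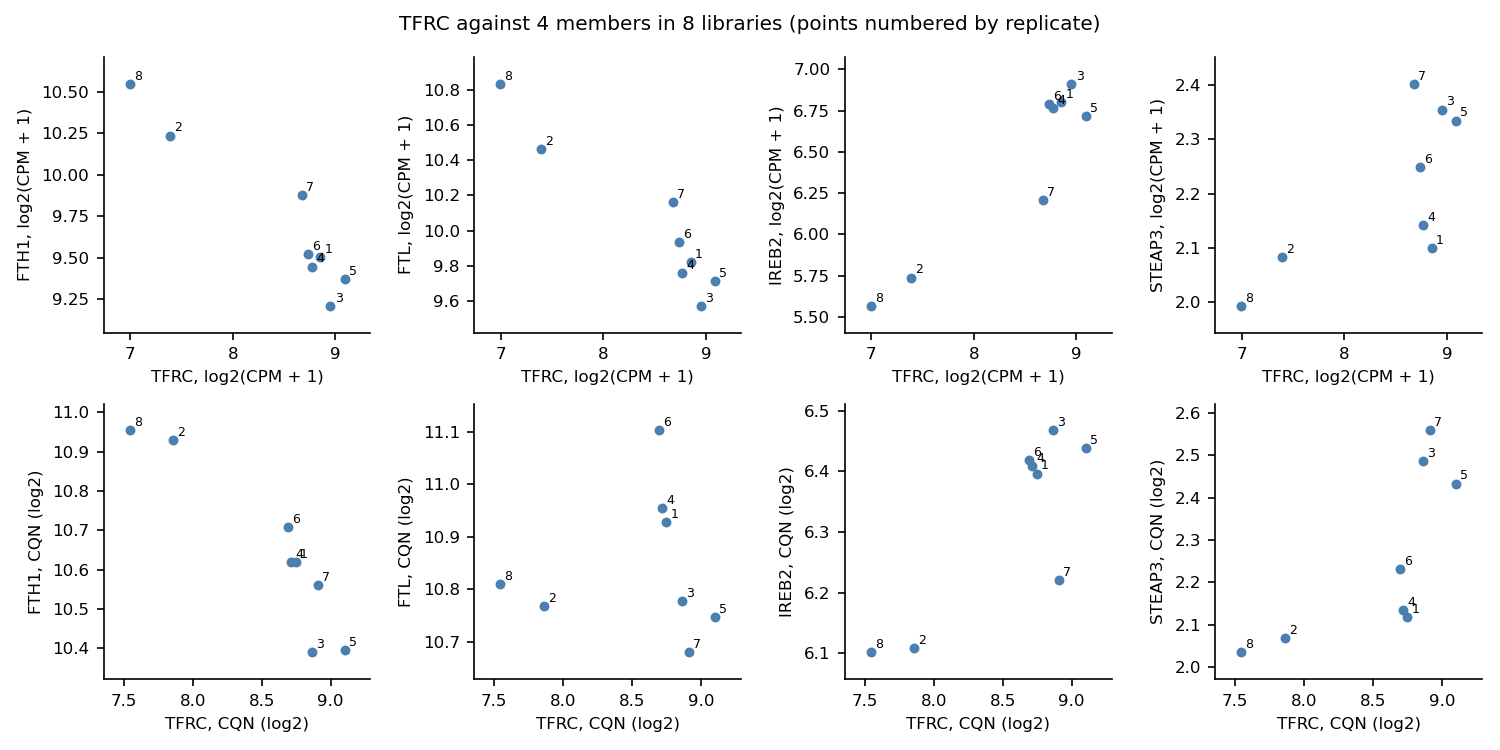
FTH1, FTL, IREB2 and STEAP3 (y axes) against TFRC (x axes) in 8 libraries, as log2(CPM + 1) in the upper row and CQN values (log2) in the lower row, with points numbered by replicate. Replicates 2 and 8 lie apart at low TFRC in each panel. FTL is opposite to TFRC in the upper row (r = -0.95) and not in the lower (r = 0.05).

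The 28 pairs among the other 8 detected members were tested in the same way, each gene against all genes. The shares of all genes called on CPM were high for FTH1 (67%), FTL (66.2%), IREB2 (68.3%) and FBXL5 (58.9%), and 0.0501% for ACO1 and for HMOX1. On this scale 6 pairs were called from both sides, all among FTH1, FTL, IREB2 and FBXL5. FTH1 and FTL had r = 0.995 (exact permutation adjusted p = 0.00448), and IREB2 and FBXL5 had r = 0.89 (exact permutation adjusted p = 0.0123 over the genes tested with IREB2). FTH1 and IREB2 were opposite, at r = -0.98 (exact permutation adjusted p = 0.00625).

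Fewer relations between members passed once length and GC content were adjusted for. On CQN values 12.3% of genes were called for FTH1, 31.2% for IREB2 and 2.1% for HFE. No pair was called from both sides (8 had an unadjusted exact permutation p under 0.05), and FTH1 and FTL had r = 0.17 (exact permutation adjusted p = 0.788). After removal of the length and GC trend the shares were 29.4% for FTH1, 36.6% for IREB2, 33.6% for ACO1, 9.48% for STEAP3 and 1.1% for FBXL5, and 2 pairs were called from both sides. FTH1 and IREB2 were opposite at r = -0.95 (exact permutation adjusted p = 0.0100 over the genes tested with FTH1). ACO1 and IREB2 were opposite at r = -0.87 (exact permutation adjusted p = 0.0253 over the genes tested with IREB2), whereas on CPM they ran together (r = 0.86).

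The 10 other detected transcripts known to carry IRE-like hairpins, FTH1 and FTL among them, served as the closest comparison, and none had as large a spread as TFRC. They were listed as known carriers, and the search above found no match with either loop in SLC11A2, PFN2, EPAS1 or APP. Their SD on CQN values ran from 0.10 (SLC11A2) to 0.37 (SLC40A1), with a median of 0.17, against 0.55 for TFRC. On log2(CPM + 1) the median was 0.28 and the highest 0.62 (CDC42BPA), against 0.78. SLC11A2 encodes DMT1, the transporter that moves iron out of the endosome, and 1 of its known isoforms has an IRE in the 3′UTR. Its level was 50.6, 34.7, 49.8, 49.4, 48.9, 53.1, 41.3 and 28.2 CPM (44.5 ± 8.88, SD, n = 8), with replicates 8 and 2 lowest. On CQN values it was 5.28, 5.51, 5.26, 5.27, 5.38, 5.40, 5.51 and 5.37, where replicates 2 and 7 were highest and the relation to TFRC was not called (r = -0.26, exact permutation adjusted p = 0.651). Counts are per gene, so isoforms with and without an element were not told apart.

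CDC14A and CDC42BPA had matches, a strict and a looser one. CDC14A was at 8.39, 4.50, 8.99, 9.80, 8.19, 9.97, 6.43 and 3.52 CPM (7.47 ± 2.42, SD, n = 8), lowest in replicates 8 and 2. Its relation to TFRC was called on CPM (r = 0.92, exact permutation adjusted p = 0.0200) and missed the threshold on CQN values (r = 0.84, adjusted p = 0.0698), where it was -0.33 without replicates 2 and 8. CDC42BPA, a kinase of the cytoskeleton, was at 207, 86.8, 203, 193, 179.6, 200, 97.9 and 75.1 CPM, low in replicates 8, 2 and also 7. Its SD fell from 0.62 on log2(CPM + 1) to 0.13 on CQN values.

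Among genes known for a 5′ element, the search matched SLC40A1 and found none in EPAS1 or APP. SLC40A1 was near the lower bound of detection at 2.16 ± 0.487 CPM and was related to TFRC on neither scale (r = -0.07 on CPM, and -0.78 on CQN values with an exact permutation adjusted p of 0.0713). EPAS1, the hypoxia-inducible factor HIF-2α, was an abundant transcript at 1739, 1165, 1582, 1642, 1688, 1690, 1482 and 1142 CPM (1516 ± 238, SD, n = 8). Replicates 8 and 2 were lowest, followed by 7. It was called with TFRC on CPM (r = 0.96, exact permutation adjusted p = 0.0177) and missed the threshold on CQN values (r = 0.91, exact permutation adjusted p = 0.0697), where r was 0.01 without replicates 2 and 8. APP, the amyloid precursor, was at 309 ± 39.6 RPKM and was not related to TFRC on either scale (r = 0.16 and -0.05).

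Beyond the 10 genes, 102 others were listed from uptake, export, storage, the FBXL5 ligase, haem, mitochondrial iron, IRE-bearing transcripts and receptor traffic, and 83 were detected. On CPM 48 of them (57.8%) were called with TFRC, 20 positive and 28 negative, against 63.2% of all genes. On CQN values 12 (14.5%) were called, 5 positive and 7 negative, against 14.3% of all genes. Both shares lay near the background. The median r on CQN values was -0.10 for the 83 genes and -0.11 for all genes. FDXR, the mitochondrial ferredoxin reductase, was the 1 gene of the 83 above the edgeR variation trend (adjusted p = 0.00642).

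Of 14 uptake genes 7 were detected. TF, the ligand of the receptor, and TFR2, the second transferrin receptor, were below the bound at 0.212 ± 0.0719 and 0.197 ± 0.0960 CPM (SD, n = 8). SLC39A14, the ZIP14 importer of iron that is not bound to transferrin, was at 143, 87.3, 153, 137, 151, 133, 126 and 71.2 CPM, lowest in replicates 8 and 2. It was called with TFRC on each of 3 scales, where r was 0.99 on CPM (exact permutation adjusted p = 0.00865), 0.99 on CQN values (adjusted p = 0.0243) and 0.99 after removal of the length and GC trend (adjusted p = 0.0163). Without replicates 2 and 8 its r was 0.93 on CPM and 0.78 on CQN values. LRP1, a scavenger receptor for haem bound to haemopexin, was also called on both scales (r = 0.94 on CPM and 0.86 on CQN values, exact permutation adjusted p = 0.0158 and 0.0356). This rests on replicates 2 and 8, since r was 0.45 and 0.47 without them.

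STEAP1 and STEAP2, the other listed STEAP family genes that were detected, ran against TFRC on CQN values, while STEAP4 was not detected. STEAP1 was at 13.8, 15.9, 10.6, 11.9, 9.49, 13.8, 11.6 and 20.9 CPM, highest in replicates 8 and 2, and was called on CPM (r = -0.89, exact permutation adjusted p = 0.0129) and on CQN values (r = -0.92, adjusted p = 0.0193). STEAP2 had CQN values of 2.90, 3.57, 2.71, 2.96, 2.42, 3.01, 2.68 and 4.00. That order of the libraries is the exact reverse of the order for TFRC (r = -0.99, rho = -1, exact permutation adjusted p = 0.0193), also within the 6 libraries without replicates 2 and 8 (r = -0.996). On CPM, where STEAP2 was 8.96 ± 1.94 (SD), it was not called (r = -0.17, exact permutation adjusted p = 0.826). MFI2, melanotransferrin, likewise had r = 0.93 on CQN values (exact permutation adjusted p = 0.0243) and -0.59 on CPM (adjusted p = 0.182), so its direction depended on the scale. CYBRD1, a plasma membrane ferrireductase and the highest uptake gene at 32.5 ± 5.59 RPKM, was called on neither.

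Of 10 genes of export and its control, 3 were detected: APP, BMP6 and SLC40A1. None was called on either scale, and hepcidin (HAMP) was not detected at 0.0119 ± 0.0180 CPM. In storage and release, 5 of 7 genes were detected and 4 were called on CPM, where 63.2% of all genes were. NCOA4, the receptor for autophagy of ferritin, was positive (r = 0.93, exact permutation adjusted p = 0.0167), while the iron chaperones PCBP1 (r = -0.91), PCBP2 (r = -0.92) and PCBP4 (r = -0.91) were negative. Without replicates 2 and 8 these r were 0.36, -0.15, 0.09 and -0.42 in the same order. None of the 5 was called on CQN values, where PCBP1 had the opposite sign (r = 0.80, exact permutation adjusted p = 0.0685). Mitochondrial ferritin, FTMT, was not detected. All 9 genes of the FBXL5 ligase and its partners were detected, and HERC2, a ubiquitin ligase reported to act on FBXL5, was the 1 called on CQN values (r = 0.95, exact permutation adjusted p = 0.0390), and on CPM too (r = 0.97). Without replicates 2 and 8 its r was 0.50 on CQN values.

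Of 20 haem genes 17 were detected, and on CPM 4 were called positive and 6 negative, near the 63.2% of all genes. SLC48A1, a haem transporter of the lysosome, was negative on CPM (r = -0.98) and on CQN values (r = -0.94, exact permutation adjusted p = 0.0331). ABCG2, an efflux pump of the barrier that also moves porphyrins, was negative on CQN values (r = -0.96, exact permutation adjusted p = 0.0193) and not called on CPM (r = -0.32). The synthesis enzymes called on CPM, UROD (r = -0.87), UROS (-0.79), PPOX (-0.99), CPOX (0.83) and FECH (0.93), did not share a direction, and none was called on CQN values.

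All 24 mitochondrial iron and iron-sulfur cluster genes were detected, 2 positive and 11 negative on CPM, 0 positive and 2 negative on CQN values. These counts lay below the 63.2% and 14.3% of all genes. FDXR was at 17.9, 42.5, 14.97, 17.4, 14.8, 17.4, 20.4 and 49.4 CPM, highest in replicates 8 and 2. It ran against TFRC on CPM (r = -0.99, exact permutation adjusted p = 0.00984) and on CQN values (r = -0.96, adjusted p = 0.0219), and kept r = -0.90 on each scale without replicates 2 and 8. NFU1, a cluster carrier, was the second (r = -0.96 on CQN values, exact permutation adjusted p = 0.0327), with r = -0.54 without replicates 2 and 8. Among the 15 genes of receptor traffic, all detected, EXOC6, an exocyst subunit, was negative on CQN values (r = -0.93, exact permutation adjusted p = 0.0338). EXOC6 was not called on CPM (r = 0.50). The clathrin chains went opposite ways on CPM, CLTC positive (r = 0.91, exact permutation adjusted p = 0.0125) and CLTA negative (r = -0.83, adjusted p = 0.0303), and neither was called on CQN values (r = -0.33 and -0.11).

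Proliferation, hypoxia and oxidative stress are known to touch TFRC or ferritin, so their genes were read too. None of 9 proliferation genes was called on CQN values, CDK1 (r = -0.90), BIRC5 (r = -0.85) and PCNA (r = -0.80) coming nearest with exact permutation adjusted p-values of 0.0692, 0.0746 and 0.0783. Without replicates 2 and 8 their r was -0.10, 0.35 and 0.29. EPAS1, described above, is also a hypoxia gene. Of 11 detected hypoxia genes 1 was called on CQN values, VEGFA (r = 0.91, exact permutation adjusted p = 0.0193, and 0.87 without replicates 2 and 8). It was also called on CPM (r = 0.84). BNIP3, a mitophagy receptor, had r = -0.80 on CQN values (exact permutation adjusted p = 0.0745), and -0.23 without replicates 2 and 8. HIF1A, the oxygen-regulated subunit of HIF-1, was above the edgeR variation trend (adjusted p = 0.00262). It was at 254, 105, 269, 269, 233, 264, 137 and 65.2 CPM, low in replicates 8, 2 and 7, and was called with TFRC on CPM (r = 0.92, exact permutation adjusted p = 0.0163) and not on CQN values (r = 0.80, adjusted p = 0.0779, and -0.36 without replicates 2 and 8). Of 14 genes of the NRF2 response to oxidants, 4 were positive and 2 negative on CQN values, where 14.3% of all genes were called, and 7 positive and 4 negative on CPM, where 63.2% were. SRXN1, sulfiredoxin, was positive (r = 0.97, exact permutation adjusted p = 0.0193) and not called on CPM (r = 0.70). PIR, pirin, was negative (r = -0.97, exact permutation adjusted p = 0.0206), and GCLM, the modifier subunit of glutathione synthesis, positive (r = 0.95, adjusted p = 0.0478, and 0.53 without replicates 2 and 8), both also called on CPM. Ferritin and HMOX1 are known targets of the same response.

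Finally, the genes closest to TFRC were taken by r over the 8 libraries. On CPM they were NAA35 (0.998), ETS1 (0.998), FRMD6 (0.998), TDG (0.997) and NUS1 (0.997), and the most opposite were TSC22D4 (-0.999), FAM69B (-0.998) and ESAM (-0.997). ETS1, an endothelial transcription factor, was at 193, 85.9, 219, 198, 247, 198, 187 and 69.6 CPM, low in replicates 8 and 2 alone. ESAM, an adhesion molecule of endothelial junctions, was at 137, 237, 126, 135, 118, 140, 135 and 268 CPM, high in the same libraries. On CQN values the closest were SPEN (0.996), TDG (0.995), TEAD1 (0.995), C1orf55 (0.994) and RANBP1 (0.994), and the most opposite CLU (-0.997), POLI (-0.992) and NIT1 (-0.991). TDG, a DNA glycosylase, was in the first 5 on both scales. RANBP1 (r = -0.66) and POLI (r = 0.27) had the other sign on CPM. No member of the 10 and no other iron gene of the lists was among them.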

How the data were processed

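Gene-level values of 8 libraries (polyadenylated RNA, TruSeq RNA v2 kit per the labels' protocols) were used. The authors deposited raw counts per gene and CQN-normalised values on a log2 scale, per the file headers. The submitters' processing notes name hg19, CASAVA 1.9, TopHat2 2.0.6 and HTSeq. The annotation, the use of strand and the CQN settings are not given in the sources used here. Table starts were 1 below the GENCODE start for 4994 genes and equal for 679, so they were read as counting from 0 and are printed 1-based.

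From the counts, TMM-scaled CPM, dispersions and goodness of fit were computed with edgeR 4.0.16 in R 4.3.3, and relations with exact permutation over the libraries (scipy 1.17.1), on log2(CPM + 1) and on CQN values. Benjamini-Hochberg adjustment covered all detected genes, at a threshold of 0.05. RPKM used GENCODE canonical transcript lengths, found for 96.8% of detected genes. The trend on length and GC content was removed with mgcv 1.9.3. Wilson intervals cover counting error only. The steps were tested on simulated data.

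Members, gene lists, alternatives and tests were chosen with earlier results of these data known. Named genes were the 10 members, list genes that were called or highest by RPKM, the 5 closest to and 3 most opposite to TFRC on each scale, and 3 genes each of the proliferation, hypoxia and NRF2 lists. Of other marker lists, neurons had 1 of 4 genes detected (SYT1) and mural cells 2 of 4 (PDGFRB and RGS5). Results for some genes are not reported here.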

Additional observations from a re-analysis of the deposited data

How the results depend on the processing

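No paired analysis was possible because the samples form 1 group. The limits are the number of libraries and 2 that stand apart for TFRC. The smallest p that permutation can give is 2.48e-05 with 8 libraries, 1.98e-04 with 7 and 0.00139 with 6.

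Genes above the variation trend numbered 558, and 2967 with the DESeq2 trend, with 5 members in place of 1. Leaving out 1 library gave 381 to 491 genes and 0 to 1 members. It was 0 without replicate 8, where 1328 genes had an unadjusted p under 0.05 by edgeR.

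Relations to TFRC on CPM numbered 7573 genes and 5 members. Deciding by Spearman's rho gave 621 genes and 2 members, and removing the length and GC trend 1904 and 2. Leaving out 1 library gave 50 to 7119 genes and 0 to 5 members, with 50 genes without replicate 8 and 52 without replicate 2, and 0 members in both. Without replicates 2 and 8 there were 0 genes (517 at an unadjusted exact permutation p under 0.05) and 0 members. Other scalings, pseudocounts and filters gave 7541 to 7987.

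Relations on CQN values numbered 1718 genes and 1 member, and by Spearman's rho 293 and 0. Leaving out 1 library gave 0 to 1921 genes and 0 to 1 members. The counts were 917, 0, 53, 641, 0, 670, 1921 and 0 without replicates 1 to 8 in turn, the 3 zeros having 2683, 4996 and 2603 genes at an unadjusted exact permutation p under 0.05. Without replicates 2 and 8 there were 0 genes (1665 unadjusted). The cause was not tested.

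Pairs of other members called numbered 6 on CPM and 0 on CQN values (8 unadjusted). The SD of TFRC was 0.78 on log2(CPM + 1) and 0.55 on CQN values.

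Single relations to TFRC that changed sign were, after removal of the length and GC trend, ACO1 (r = -0.76, exact permutation adjusted p = 0.0803), HFE (-0.92, 0.0526) and HMOX1 (0.39, 0.445). On CQN values FTL was -0.52 by Spearman's rho, -0.80 without replicates 2 and 8, and -0.0839 to 0.206 with 1 library left out. Without both, CDC14A was -0.33, HFE -0.49, IREB2 -0.0627 and SLC11A2 0.35, and SLC11A2 ran from -0.511 to 0.0352 with 1 library left out. FTL (-0.58) and IREB2 (0.89) lost their CPM call once the trend was removed, with adjusted p of 0.185 and 0.0695. Of 491 alternative values for 41 relations, 197 kept the sign and lost the call, 1 gained it and 13 changed sign. The remaining 280 kept the sign and stayed as they were, called or not called, so they include relations that never passed. The cause was not tested.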
